A study of Mus musculus with 8 samples.

Results

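The 37 genes described here encode transcription factors that lay down the segments of the nephron or are kept on in its adult segments, and they were taken by name. The list was drawn up with earlier results of these data known, so the shares of its genes that differed are a description of the list. All 37 had a gene identifier among the 42416 in the files, and 31 of them passed the filter on low counts and were tested among 14268 genes. Libraries were made from sorted pieces of distal convoluted tubule of mice, the short stretch behind the macula densa where NaCl is taken up by a cotransporter that thiazide diuretics block. The 4 KO libraries came from animals with both copies of the floxed Cnb1 allele (Cnb1fl Tg/Tg, NCCcre Tg/+, TOMATO Tg/+), and the 4 Control libraries from animals with the same Cre and reporter transgenes and no floxed allele (Cnb1fl wt, NCCcre Tg/+, TOMATO Tg/+). Cnb1 is the regulatory subunit of the phosphatase calcineurin (gene symbol Ppp3r1), and the Cre recombinase carries the name of the NaCl cotransporter, NCC, whose cells it is meant to reach. All animals, Control included, received tamoxifen by gavage, 2 mg per animal on each of 5 days, and tubules were taken 3 weeks later, with 1000 fragments per library. The labels give neither age, sex nor strain, and each title ends in its own ZH number, which is not said to be an animal, so whether the libraries of a group came from separate animals is not stated and p-values measure the spread between these libraries.

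In the embryo, factors of the PAX, LHX and SALL families turn mesenchyme into nephrons, and IRX, POU3F, HOX and AP-2 factors then divide the tubule along its length. Many stay on in the adult segment in which they acted. AP-2 beta (Tfap2b) is needed in the mouse for the distal convoluted tubule to form, and TFCP2L1, GATA2, GRHL2 and ELF5 belong to the connecting and collecting duct programme. Calcineurin, the target of cyclosporin and tacrolimus, removes phosphate from NFAT factors and other proteins.

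Total counts were between 18161442 and 45150953 per library. Across all genes, 191 were higher and 125 lower in KO at an adjusted p under 0.05, which is 2.21% of those tested. That balance was not kept in every fit: 242 were higher and 90 lower with library totals as the scaling, and 5 were higher and 24 lower with a term for the first digits of the ZH number. Ppp3r1 itself stood at 80.7, 74.0, 97.7 and 92.5 CPM (read counts per gene scaled to the effective library size) in KO replicates 1 to 4, against 108, 97.4, 99.8 and 84.4 CPM in Control replicates 1 to 4. These ranges overlap, so the target does not check the labels, and which exons are floxed is not stated. Replicate numbers only name the libraries. Of 12 marker genes of the distal convoluted tubule none was at 0 in any library, and their summed level was between 16218 and 20598 CPM in KO and between 27253 and 30896 CPM in Control. Markers of other segments were present too. Those of the thick ascending limb summed to between 2739 and 5465 CPM in KO and 7462 to 12216 CPM in Control, those of the connecting tubule and principal cells to between 2632 and 4721 CPM in KO and 5443 to 11150 CPM in Control, and those of the proximal tubule to between 3804 and 10040 CPM in KO and 6466 to 15159 CPM in Control. Intercalated cell markers summed to between 893 and 1214 CPM in KO and 773 to 1016 CPM in Control. Of the 12 distal convoluted tubule markers 5 fell (Pvalb, Trpm6, Calb1, Klhl3 and Wnk4) and 0 rose. The part of these marker differences in the values of the factors was not tested. In such bulk libraries, fewer cells of a type and less RNA per cell cannot be told apart.

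Of the 31 tested factors, 3 rose in KO (Tfap2b, Emx2 and Mecom) and 0 fell, by edgeR's quasi-likelihood test with p adjusted over all genes, where 1.34% of all genes rose and 0.876% fell. With the p left unadjusted and under 0.05, 8 factors stood higher in KO, where 7.79% of all genes did, and 2 stood lower, where 6.15% did, 13.9% of all genes together. DESeq2, which called 2.96% of all genes higher and 2.29% lower, put 5 factors past the threshold, adding Tfcp2l1 and Klf4, all higher. By limma-voom, with 2.00% of all genes higher and 1.63% lower, there were 4 factors higher, adding Tfcp2l1, and 1 lower, Irx3. The median log2 fold change of the 31 was -0.03, against -0.02 over all genes tested.

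The start regions of these genes are shown because they are the members past the threshold, and each rose. Each window runs from 250 bases before to 50 bases after a transcription start in RefSeq (GRCm38.p6), and is written 5′ to 3′ on the strand of the gene. Capitals mark matches on either strand to GGAAA, the core that NFAT factors bind.

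Tfap2b chr1:19211804-19212103, plus strand: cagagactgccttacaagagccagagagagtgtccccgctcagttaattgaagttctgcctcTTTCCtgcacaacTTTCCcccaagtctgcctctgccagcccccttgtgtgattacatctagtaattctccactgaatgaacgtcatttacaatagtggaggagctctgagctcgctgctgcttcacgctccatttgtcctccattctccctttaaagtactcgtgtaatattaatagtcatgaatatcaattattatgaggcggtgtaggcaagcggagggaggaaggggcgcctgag
Emx2 chr19:59458440-59458739, plus strand: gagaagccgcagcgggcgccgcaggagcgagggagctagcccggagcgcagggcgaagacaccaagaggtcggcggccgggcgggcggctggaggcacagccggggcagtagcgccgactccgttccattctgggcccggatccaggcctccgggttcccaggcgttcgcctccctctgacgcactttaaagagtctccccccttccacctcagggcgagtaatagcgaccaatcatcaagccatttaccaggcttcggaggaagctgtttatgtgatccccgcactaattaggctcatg
Mecom chr3:30509710-30510009, minus strand: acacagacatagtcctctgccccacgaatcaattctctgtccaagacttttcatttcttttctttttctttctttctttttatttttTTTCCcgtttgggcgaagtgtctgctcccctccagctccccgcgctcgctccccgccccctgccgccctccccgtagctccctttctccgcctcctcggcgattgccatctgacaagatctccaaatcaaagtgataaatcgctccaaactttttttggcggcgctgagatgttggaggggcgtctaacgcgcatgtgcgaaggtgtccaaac
Mecom chr3:30013155-30013454, minus strand: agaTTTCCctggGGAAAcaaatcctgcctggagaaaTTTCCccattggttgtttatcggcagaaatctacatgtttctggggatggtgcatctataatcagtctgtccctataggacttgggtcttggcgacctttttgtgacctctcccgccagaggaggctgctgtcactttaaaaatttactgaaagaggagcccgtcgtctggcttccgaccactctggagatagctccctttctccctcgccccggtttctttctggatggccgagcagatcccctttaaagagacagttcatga

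The window of Tfap2b held 2 matches, that of Emx2 held 0, and those of Mecom held 1 at the upstream start and 3 at the downstream start. This pentamer is common: 61.3% of all 32851 promoter windows of the same length held at least 1 match, as did 22 of the 35 windows of the members (62.9%). The palindrome GCCNNNGGC, to which AP-2 factors bind, was in none of these 4 windows, in 10 of the 35 windows of the members (28.6%) and in 16.6% of all windows. The promoter table covered 25 of the 37 genes. Gene-level counts do not say which start of Mecom was used.

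Levels of different genes are compared as CPM per kilobase of annotated exon. In Control, Hoxd8, a homeobox gene of the HOXD cluster, stood highest at 239 ± 60.1 (SD, n = 4 for each level given here), then Tfcp2l1 at 81.8 ± 17.6, the homeobox gene Emx1 at 75.8 ± 23.9, Hoxd10 at 50.1 ± 7.94 and Lhx1 at 34.0 ± 3.58. Tfcp2l1 and Emx1 did not differ beyond their spread, and neither did Hoxb7 at 25.3 ± 8.87, Klf15 at 24.5 ± 3.60 and Tfap2b at 23.1 ± 0.947. In KO, Hoxd8 was at 222 ± 26.4, Tfcp2l1 at 132 ± 13.2 and Emx1 at 70.4 ± 20.3, while Tfap2b at 35.6 ± 4.40 stood beside Lhx1 at 34.9 ± 6.98. Emx1, which is expressed at a high level in this segment in the adult mouse kidney, and Sall3 did not pass the test. At the other end, the early progenitor factors were almost without reads. Sall4 had 0 counts of 219759292 in the 8 libraries, which allows up to 0.0137 CPM, and Six2 and Eya1 had 1 count each.

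**Figure D1:**
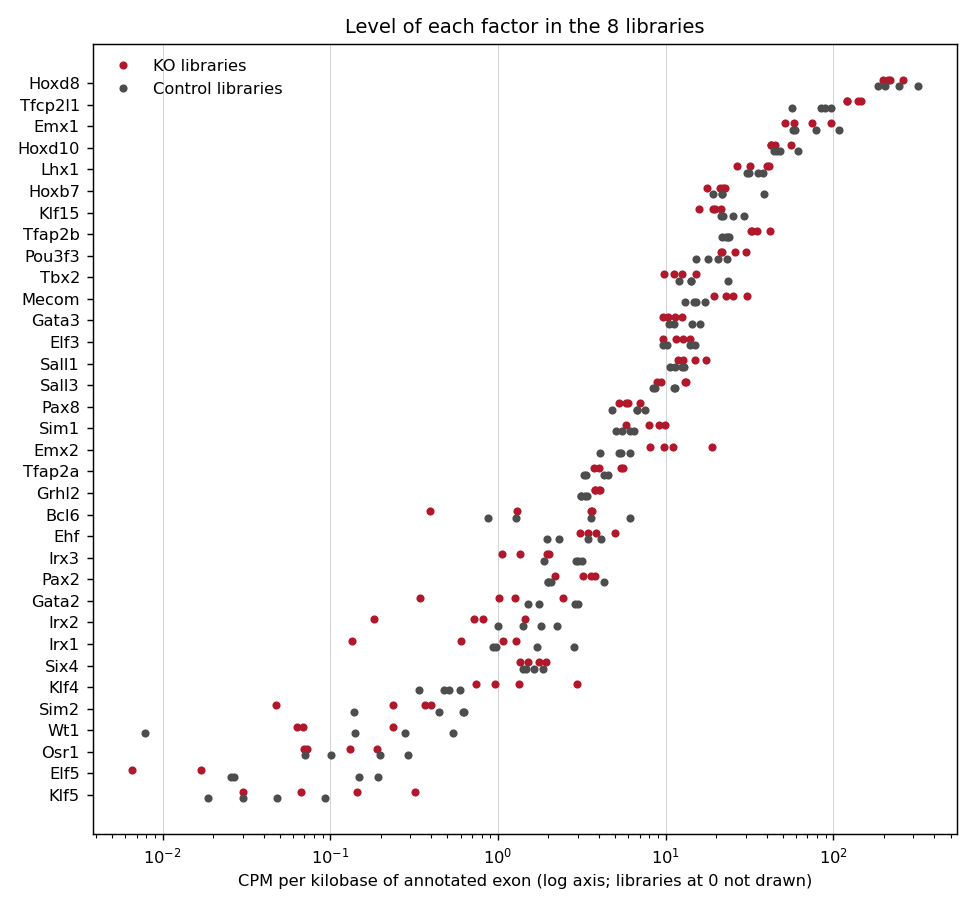
Level of each factor in the 4 KO (red) and 4 Control (grey) libraries, in CPM per kilobase of annotated exon on a log axis, sorted by the Control mean, for the 34 factors with more than 20 counts. The libraries of Hoxd8 lie highest in both groups, and only for some genes, such as Tfap2b and Mecom, do the red points lie apart from the grey ones.

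Tfap2b (ENSMUSG00000025927, chromosome 1, 19208914 to 19238576, plus strand, GRCm38) encodes AP-2 beta, which the mouse needs to form this segment. Its level was 208, 206, 222 and 266 CPM in KO replicates 1 to 4, against 145, 152, 149.8 and 138 CPM in Control replicates 1 to 4. Every KO library lay above every Control library, and the Control libraries lay within a narrow band. The mean was 226 ± 27.9 CPM in KO and 146 ± 6.004 CPM in Control (SD, n = 4 each), which is 0.63 ± 0.12 (SE) on the log2 scale, with an adjusted p of 0.0280. The call was kept in 2 of the 8 fits that left out a library, those without KO replicate 3 and without Control replicate 1. In the other fits the adjusted p was between 0.0544 and 0.0990 and the log2 fold change between 0.54 and 0.67. Its paralogue Tfap2a, at 22.9 ± 4.64 CPM in KO and 18.9 ± 3.14 CPM in Control, had a log2 fold change of 0.28 ± 0.17 and did not pass (adjusted p = 0.496).

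Emx2 (ENSMUSG00000043969, chromosome 19, 59458372 to 59465357, plus strand) encodes a homeobox factor without which mouse kidneys do not form. Its level was 33.4, 29.2, 24.2 and 57.1 CPM in KO replicates 1 to 4, against 12.2, 15.8, 16.4 and 18.3 CPM in Control replicates 1 to 4. The groups did not overlap, and KO replicate 4 stood above the other KO libraries. The log2 fold change was 1.20 ± 0.25 (SE, adjusted p = 0.0461), and 0.88 without KO replicate 4 (adjusted p = 0.0633). Leaving out any library but KO replicate 3 ended the call. The antisense gene Emx2os shares 264 exon bases with Emx2 on the opposite strand and held 15.2% as many counts. It was at 4.85, 4.36, 3.42 and 6.97 CPM in KO and 4.29, 2.36, 2.19 and 3.46 CPM in Control, and since no strand setting is given, reads of the shared bases cannot be assigned. The related Emx1 was at 212, 128, 112 and 163 CPM in KO replicates 1 to 4 and 237, 125, 129 and 171 CPM in Control replicates 1 to 4, with groups that overlap almost fully. Its log2 fold change was -0.11 ± 0.25 (adjusted p = 0.861), and 0.07 with library totals as the scaling.

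Mecom (ENSMUSG00000027684, chromosome 3, 29951296 to 30548008, minus strand) encodes a zinc-finger regulator, also called EVI1, whose zebrafish counterpart takes part in dividing the pronephros into segments. Its level was 242, 285, 311 and 381 CPM in KO replicates 1 to 4, against 163, 214, 189 and 183 CPM in Control replicates 1 to 4. All KO libraries were above all Control libraries. The mean was 305 ± 58.0 CPM in KO and 187 ± 21.1 CPM in Control (SD, n = 4 each), which is 0.70 ± 0.16 (SE) on the log2 scale. Its adjusted p was 0.0499, at the edge of the threshold, and no fit with a library left out kept the call (adjusted p from 0.0502 to 0.148, log2 fold change from 0.58 to 0.79). The fit behind this value uses edgeR's default estimate of the spread. A fit with the robust estimate had been run and seen before the default was settled on, and in it the adjusted p of Mecom was 0.0522, so the choice between them decides this call. Tfap2b and Emx2 passed in both, at 0.0295 and 0.0465 with the robust estimate. Mecom passed with library totals (adjusted p = 0.0340), upper-quartile scaling (0.0493), DESeq2 (0.00179), limma-voom (0.0249) and no filter (0.0419). It did not pass with at least 5 CPM in 4 libraries (0.0701).

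Adding a term for how the deposited files were named, which sets KO replicate 1 and Control replicate 2 apart from the other libraries, left the log2 fold changes of Tfap2b, Emx2 and Mecom at 0.62, 1.20 and 0.70, with adjusted p-values of 0.0502, 0.0713 and 0.0862. With a term for the first 3 digits of the ZH number they were 0.59, 1.27 and 0.66, with adjusted p-values of 0.136, 0.145 and 0.133. Control replicate 4 shares its first 3 digits with no other library, so it adds nothing to the fold changes of that fit. What either split stands for is not stated. KO replicate 1 and Control replicate 2 also had the highest total counts, 45150953 and 42389558, with KO replicate 3 next at 25230884. File naming and depth therefore cannot be told apart.

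**Figure D2:**
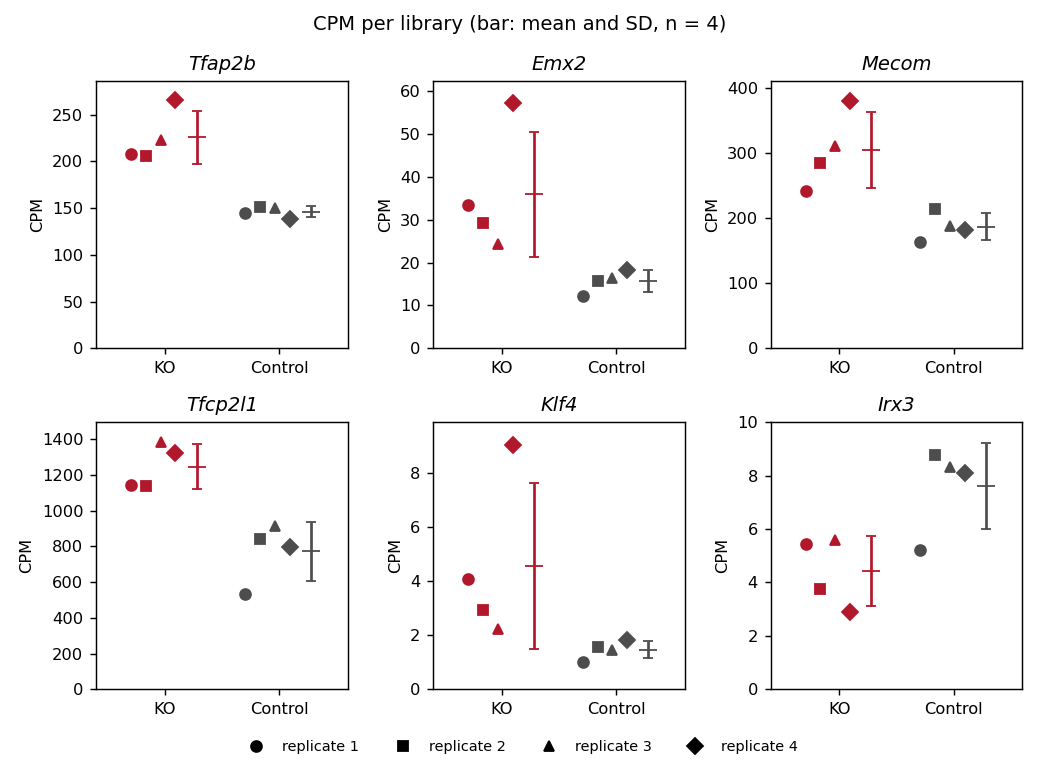
CPM in each KO (red) and Control (grey) library for Tfap2b, Emx2, Mecom, Tfcp2l1, Klf4 and Irx3, on axes from 0, with symbols for the replicate numbers and a bar for the mean and SD (n = 4). In the first 5 genes every KO library lies above every Control library, while in Irx3 KO replicates 1 and 3 lie above Control replicate 1.

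Several further factors stood apart between the groups without passing the adjusted test. In all, 7 of the 31 tested factors had KO libraries that did not overlap the Control libraries, 6 of them higher (Tfap2b, Emx2, Mecom, Tfcp2l1, Grhl2 and Klf4) and 1 lower (Klf15), which is 22.6% of those tested where 9.44% of all genes tested showed such separation, 5.61% higher and 3.83% lower. Tfcp2l1, a CP2-family factor needed in mice for the cell types of the collecting duct, was at 1145, 1138, 1384 and 1321 CPM in KO replicates 1 to 4, against 534, 839, 915 and 798 CPM in Control replicates 1 to 4. Its log2 fold change was 0.69 ± 0.18 (SE, adjusted p = 0.0896), and Control replicate 1 was the lowest library. DESeq2 (adjusted p = 0.00677) and limma-voom (adjusted p = 0.0467) passed it. Atp6v1b1, a proton pump subunit of intercalated cells that the same factor is known to act on, was at 580, 697, 550.3 and 672 CPM in KO replicates 1 to 4 and 499, 435, 394 and 477 CPM in Control replicates 1 to 4 and differed by 0.47 ± 0.13 on the log2 scale (adjusted p = 0.127). Of the 8 intercalated cell markers, 4 had negative fold changes, 0 passed in either direction, and 2 were higher at an unadjusted p under 0.05. Foxi1, the factor that defines intercalated cells, differed by 0.19 ± 0.32 on the log2 scale (adjusted p = 0.802).

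Grhl2, a grainyhead factor of the epithelial barrier, was at 32.5, 35.0, 32.7 and 34.7 CPM in KO replicates 1 to 4, against 26.9, 28.6, 26.9 and 29.4 CPM in Control replicates 1 to 4. The 2 groups lay close together and each was tight, and the log2 fold change was 0.27 ± 0.09 (SE, adjusted p = 0.229). Gm16136, a predicted gene that shares 169 exon bases with it on the opposite strand, held 28.3% as many counts. The ETS factors Elf3 and Ehf did not pass either, at -0.03 ± 0.17 and 0.37 ± 0.25.

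Elf5, an ETS factor of principal cells, was too low to be tested. It had 0, 1, 0 and 2 counts in KO replicates 1 to 4, against 18, 47, 3 and 3 counts in Control replicates 1 to 4. The scaled ratio of KO to Control was 0.0356 with an exact 95% counting interval of 0.00718 to 0.108, which covers counting error alone. Without Control replicate 2, which held 47 of the 71 Control counts, it was 0.0621 (0.0120 to 0.205). With no filter on low counts the adjusted p of Elf5 was 0.0644. Aqp2, the vasopressin-regulated water channel of principal cells and a gene that ELF5 and GATA2 bind, was at 34.0, 12.1, 16.5 and 5.11 CPM in KO replicates 1 to 4 and 23.8, 69.3, 29.7 and 35.9 CPM in Control replicates 1 to 4 and differed by -1.22 ± 0.51 on the log2 scale (adjusted p = 0.320). All 10 markers of the connecting tubule and principal cells had negative fold changes, and 0 were past the adjusted threshold. At an unadjusted p under 0.05, 9 of them were lower, where 6.15% of all genes were. All 10 proximal tubule markers also had negative fold changes, with 0 of them lower at that unadjusted p. The part of connecting tubule and principal cells in the Elf5 values was not tested.

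Gata2, needed in the mouse collecting duct for full Aqp2 expression, was at 5.47, 6.82, 13.1 and 1.85 CPM in KO replicates 1 to 4, against 9.46, 16.2, 8.15 and 15.6 CPM in Control replicates 1 to 4. The groups overlap, and KO replicate 4, lowest for Gata2, was also lowest for Aqp2. The log2 fold change was -0.86 ± 0.47 (adjusted p = 0.443). Gata3, a factor of the nephric duct and ureteric bud, was at 43.5 ± 4.97 CPM in KO and 52.0 ± 10.4 CPM in Control. The gene 9230102O04Rik, which overlaps Gata3 on the same strand, held 23.3% as many counts. It was at 8.23, 6.52, 8.18 and 7.97 CPM in KO and 21.3, 8.30, 13.9 and 19.5 CPM in Control. Its log2 fold change was -1.02 ± 0.27 (adjusted p = 0.0975), and its part in the Gata3 values was not tested. Tbx2, a T-box repressor, was at 44.0 ± 8.26 CPM in KO and 58.0 ± 18.6 CPM in Control, with Control replicate 4 at 85.3 CPM. Neither passed (adjusted p = 0.479 for Gata3 and 0.436 for Tbx2).

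The Iroquois genes, which mark the intermediate tubule and the loop of Henle, were lower in KO on average and did not pass. Irx3 was at 5.45, 3.74, 5.59 and 2.91 CPM in KO replicates 1 to 4, against 5.22, 8.78, 8.31 and 8.12 CPM in Control replicates 1 to 4. Control replicate 1 lay within the KO range. The log2 fold change was -0.78 ± 0.26 (SE, adjusted p = 0.205, and 0.0367 by limma-voom). Irx1 was at 2.797, 1.58, 3.34 and 0.351 CPM in KO replicates 1 to 4 and 2.54, 4.50, 2.46 and 7.42 CPM in Control replicates 1 to 4 and differed by -1.05 ± 0.58 on the log2 scale (adjusted p = 0.442). Irx2, its neighbour on chromosome 13, was at 2.67, 2.35, 4.76 and 0.601 CPM in KO replicates 1 to 4 and 4.63, 5.92, 3.29 and 7.37 CPM in Control replicates 1 to 4 and differed by -1.02 ± 0.49 on the log2 scale (adjusted p = 0.384). For both genes KO replicate 4 was the lowest of the 8 libraries and Control replicate 4 the highest.

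Slc12a1, the NaK2Cl cotransporter of the thick ascending limb, was at 504, 526, 896 and 254 CPM in KO replicates 1 to 4 and 708, 1263, 639 and 1103 CPM in Control replicates 1 to 4, so KO replicate 4 was lowest here as well. Its log2 fold change was -0.77 ± 0.35 (adjusted p = 0.368). All 5 thick ascending limb markers that could be tested had negative fold changes, and 1 of them passed, where 0.876% of all genes fell. Such a direction was not particular to this segment. All 10 proximal tubule markers, the 5 tested stroma and mesangium markers and 9 of the 12 distal convoluted tubule markers had negative fold changes. Of the 8 intercalated cell markers 4 did. The part of the thick ascending limb markers in the Irx values was not tested. Pou3f3, a POU factor that the mouse needs to form the loop of Henle, went the other way, at 191, 157, 161 and 223 CPM in KO replicates 1 to 4 and 171, 133, 112 and 151 CPM in Control replicates 1 to 4. The groups overlap and the log2 fold change was 0.37 ± 0.16 (adjusted p = 0.355).

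Sim1 and Sim2 are related bHLH-PAS factors. Sim1 was at 78.8, 49.9, 68.4 and 85.5 CPM in KO replicates 1 to 4 and 47.4, 52.6, 43.8 and 55.5 CPM in Control replicates 1 to 4, and KO replicate 2 lay within the Control range. Its log2 fold change was 0.50 ± 0.17 (adjusted p = 0.198). Sim2, at 1.11 ± 0.674 CPM in KO and 1.93 ± 0.964 CPM in Control, had -0.78 ± 0.59 (adjusted p = 0.574).

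**Figure D3:**
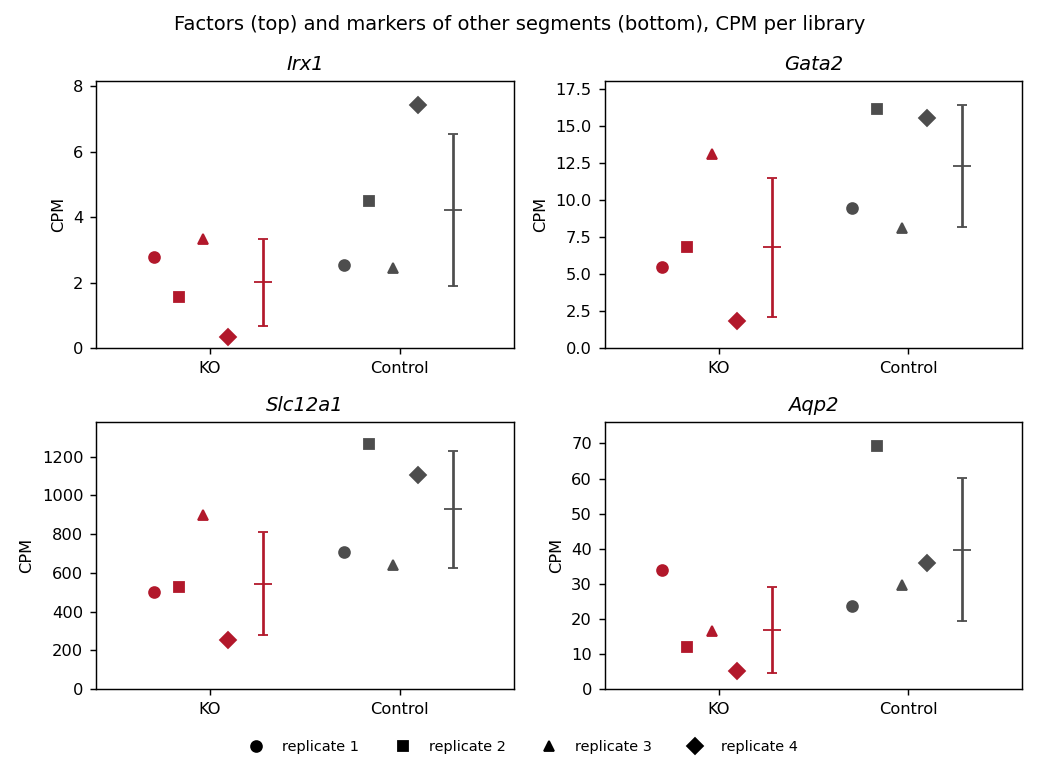
CPM per library, KO (red) left of Control (grey), for the factors Irx1 and Gata2 (top row) and for a marker of the thick ascending limb (Slc12a1) and of principal cells (Aqp2) below them, with a bar for the mean and SD (n = 4). KO replicate 4 (diamond) is the lowest of the 8 libraries in all 4 panels. It is also lowest in the summed markers of the distal convoluted tubule (16218 CPM), proximal tubule (3804 CPM) and podocytes (7.12 CPM). In the sums of intercalated cell and leukocyte markers it is not the lowest.

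Of the factors that act early in the nephron, the 5 that could be tested did not pass. Pax8, a paired-box factor of the whole nephric lineage, was at 36.4 ± 4.37 CPM in KO and 39.2 ± 7.17 CPM in Control, and its log2 fold change of -0.11 ± 0.15 became 0.03 with library totals as the scaling. Its partner Pax2 had 0.32 ± 0.28, the LIM homeobox gene Lhx1 0.04 ± 0.16 and Six4 0.04 ± 0.15. Osr1, a zinc-finger factor of the intermediate mesoderm, had 27 counts in KO and 36 in Control and was not tested. Sall1, whose loss stops kidney development in the mouse, was at 74.6 ± 12.9 CPM in KO and 62.4 ± 5.34 CPM in Control, and its relative Sall3 at 83.4 ± 17.2 CPM in KO and 74.1 ± 12.0 CPM in Control. Their log2 fold changes were 0.26 ± 0.14 and 0.17 ± 0.17.

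Wt1, which in the adult kidney belongs to podocytes, was at 0.391, 0.424, 1.46 and 0 CPM in KO replicates 1 to 4, against 0.0488, 0.866, 1.72 and 3.36 CPM in Control replicates 1 to 4. Its log2 fold change was -1.37 ± 1.00 (adjusted p = 0.560), and it was -0.61 without Control replicate 4, -2.34 without KO replicate 3, -2.15 by limma-voom and -0.35 with the term for the ZH number. It was at 0 in KO replicate 4, near 0 in Control replicate 1 and highest in Control replicate 4. The summed level of the 7 podocyte markers was between 7.12 and 90.3 CPM in KO and between 7.17 and 137 CPM in Control. Nphs1 differed by -0.45 ± 1.17 on the log2 scale (adjusted p = 0.875).

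None of the 3 HOX members passed. Hoxd8 was at 539, 600.2, 584 and 709.8 CPM in KO replicates 1 to 4 and 879, 507, 677 and 561 CPM in Control replicates 1 to 4 and differed by -0.11 ± 0.18 on the log2 scale (adjusted p = 0.802). Hoxd10, at -0.11 ± 0.14, shares exon bases on the same strand with Gm28309, which held 13.2% as many counts. Hoxb7, whose promoter is widely used to mark the ureteric bud and collecting duct, had -0.28 ± 0.21 (adjusted p = 0.576), and -0.01 without Control replicate 1. The fold changes of Hoxd8 and Hoxd10 were 0.05 each with library totals as the scaling, which shifts the median of all genes from -0.02 to 0.13.

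Klf4, a factor of epithelial differentiation, was at 4.07, 2.93, 2.24 and 9.02 CPM in KO replicates 1 to 4, against 1.02, 1.56, 1.46 and 1.80 CPM in Control replicates 1 to 4. The groups did not overlap, and KO replicate 4 stood above the other KO libraries. The log2 fold change was 1.63 ± 0.43 (SE, adjusted p = 0.105, and 0.00811 by DESeq2), and 1.07 without KO replicate 4. Klf5, a collecting duct relative, had 109 counts in KO and 30 in Control and was not tested, and KO replicate 1 held 81 of the KO counts. Klf15, a glucocorticoid-induced factor, was at 59.8, 53.4, 43.9 and 55.1 CPM in KO replicates 1 to 4 and 59.8, 61.4, 70.8 and 81.7 CPM in Control replicates 1 to 4 and differed by -0.37 ± 0.14 on the log2 scale (adjusted p = 0.271). Its groups all but touch, at 59.78 CPM in KO replicate 1 and 59.83 CPM in Control replicate 1. Bcl6, a transcriptional repressor, was at 2.65, 24.4, 8.74 and 24.1 CPM in KO replicates 1 to 4 and 24.0, 41.3, 8.62 and 5.81 CPM in Control replicates 1 to 4. Its spread within each group exceeded the difference between them (log2 fold change -0.43 ± 0.72, adjusted p = 0.799).

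**Figure D4:**
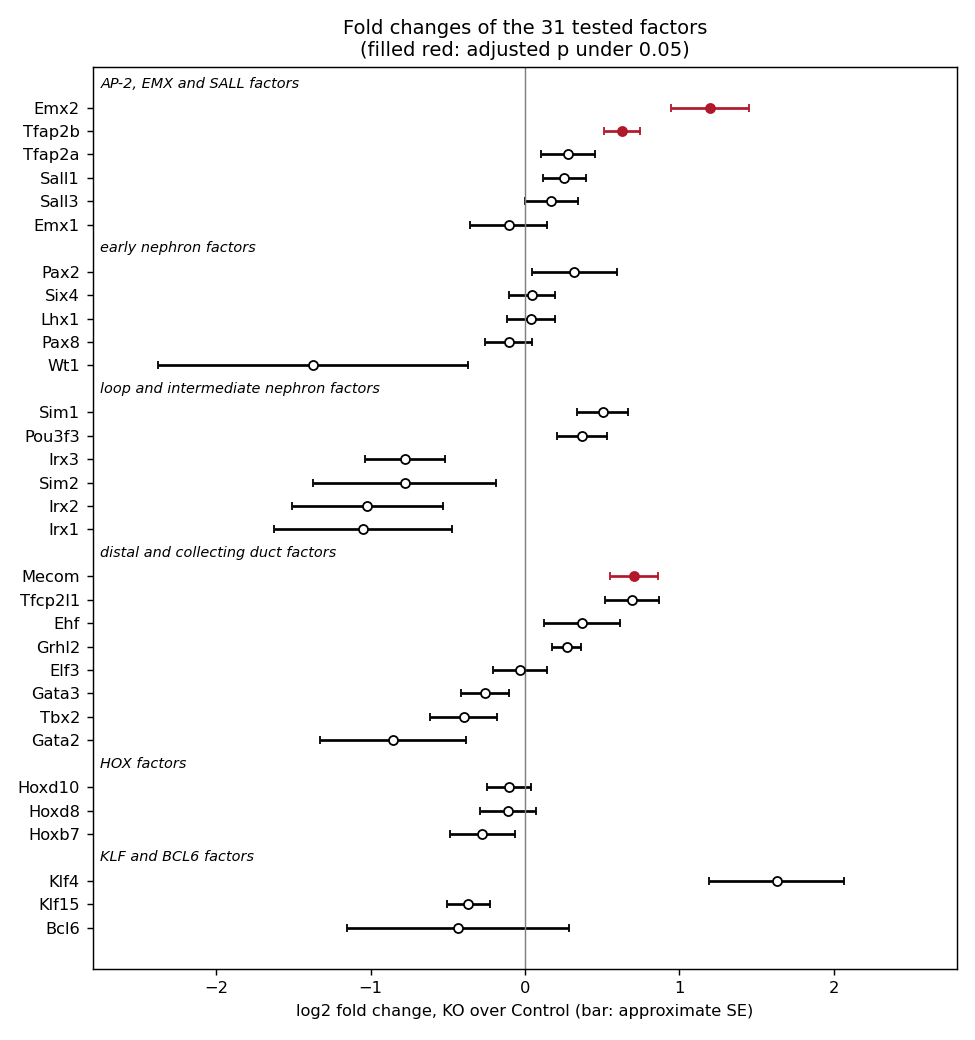
Log2 fold change, KO over Control, of the 31 tested factors with the approximate standard error, grouped by role, with filled red points for an adjusted p under 0.05. Emx2, Tfap2b and Mecom are the filled points, Klf4 has the highest value at 1.63 and Wt1 the lowest at -1.37 with the widest bar.

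Other members of the same families did not pass the test. Of 110 further AP-2, SALL, PAX, POU3F, IRX, LHX, grainyhead, GATA, EYA, ELF, KLF, PRDM, BCL6, OSR, T-box, HOX and related genes, 56 were tested. By edgeR 0 rose and 0 fell, against 1.34% and 0.876% of all genes. With shares this low, 0 calls among 56 genes do not set the relatives apart. Before adjustment, p was below 0.05 for 4 relatives with KO above Control, against 7.79% of all genes. It was so for 2 with KO below Control, against 6.15%. By DESeq2 2 of these relatives passed, both higher, where that test called 2.96% of all genes higher and 2.29% lower. By limma-voom 0 passed, against 2.00% of all genes called higher and 1.63% lower. Their median log2 fold change was -0.04, against -0.02 over all genes.

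Among 42 partners and reported targets of these factors, 38 were tested, with a median log2 fold change of 0.04. By edgeR 1 rose and 1 fell, where 1.34% of all genes rose and 0.876% fell. By DESeq2 3 were higher and 2 lower, where 2.96% and 2.29% of all genes were. By limma-voom 2 were higher and 0 lower, where 2.00% and 1.63% were. With library totals 3 were higher and 0 lower, where 242 and 90 of all 14268 genes tested were. Jag1 (chromosome 2, 137081456 to 137116644, minus strand), a Notch ligand, rose, at 97.4, 71.8, 89.4 and 110.1 CPM in KO replicates 1 to 4 against 41.3, 43.7, 40.3 and 45.0 CPM in Control replicates 1 to 4. The groups lay far apart, and the log2 fold change was 1.11 ± 0.14 (SE, adjusted p = 0.00709). It passed in all 8 fits that left out a library, and its adjusted p was 0.0578 with the term for the ZH number. Cited2 (chromosome 10, 17723218 to 17725674, plus strand), a coactivator that links AP-2 factors to CBP and p300, fell, at 37.3, 37.9, 41.7 and 52.9 CPM in KO replicates 1 to 4 against 93.3, 87.8, 56.2 and 82.7 CPM in Control replicates 1 to 4. KO replicate 4 and Control replicate 3 lay next to each other without overlap. The log2 fold change was -0.92 ± 0.18 (SE, adjusted p = 0.0316), and the call was kept in 3 of the 8 fits that left out a library (adjusted p up to 0.116 in the others). It did not pass with library totals (adjusted p = 0.0630), by limma-voom (0.0514), or with the term for file naming (0.0534) or the ZH number (0.157). Kctd1, which binds and represses AP-2 factors and is itself a gene of this segment, had 0.07 ± 0.15 as its log2 fold change (adjusted p = 0.855). Slc12a3, the NaCl cotransporter that defines the segment, had -0.41 ± 0.25 (adjusted p = 0.490).

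**Figure D5:**
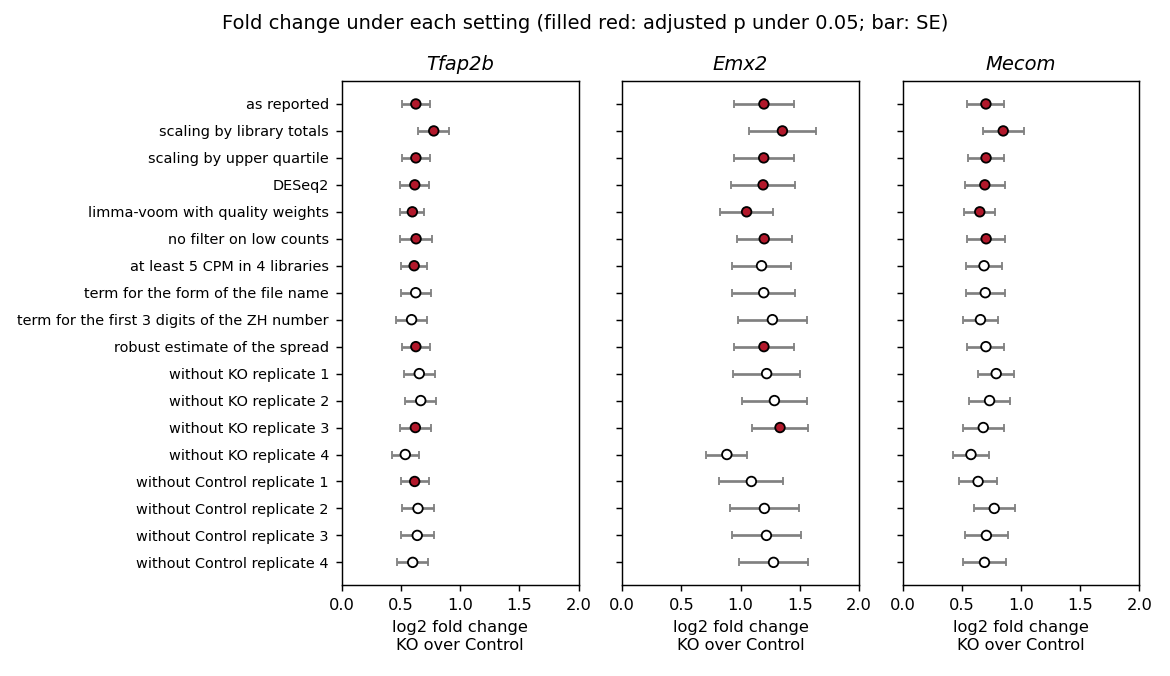
Log2 fold change of Tfap2b, Emx2 and Mecom, KO over Control, with its standard error under each of 18 settings, from top to bottom the reported one, other scalings, tests, filters and terms, and fits without 1 library. All points lie above 0, between 0.54 and 0.78 for Tfap2b, 0.88 and 1.35 for Emx2 and 0.58 and 0.85 for Mecom, and the open points are fits with an adjusted p of 0.05 or more.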

How the data were processed

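Each of the 8 libraries has 1 table of raw read counts by Ensembl gene, whole numbers deposited by the authors. The submitters' processing notes name bcl2fastq 2.20, fastp 0.20.0, STAR 2.7.4a and GRCm38.p6. For the counting program, annotation release, strand setting and reads with several matches, the sources used here state nothing. GENCODE vM21 (GRCm38) named 42347 of the 42416 identifiers, and the other 69 held 0.0199% of counts.

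Genes were kept by filterByExpr, scaled by TMM and compared by edgeR 4.0.16 (R 4.3.3), a two-sided quasi-likelihood F test with genotype as the only factor, all 8 libraries, Benjamini-Hochberg adjustment over all genes tested and a threshold of 0.05. The spread was first estimated with edgeR's robust option. After those results were seen the fit was changed to the default option, the plain form named in the planned design. Both results were known when the default was kept. The robust fit is given as an alternative. Between the default and the robust fit, Mecom passes the threshold only in the default one.

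The standard error, an approximation, is the size of the log2 fold change over the root of F. CPM use TMM-scaled library sizes. The TMM factors were between 1.01 and 1.1 in KO and between 0.885 and 0.981 in Control, so the scaling itself differed between the groups. Exon lengths are the union of annotated exons. Counting intervals at 95% are exact (SciPy 1.17.1), and the limit for 0 counts is 3 counts of the total. Reads carry no molecular identifiers, so both cover counting error only. Alternatives were DESeq2 1.42.0, limma-voom (limma 3.58.1), other scalings and filters, 2 added terms, and leaving out each library. Promoter sequences come from RefSeq. The members and gene lists were chosen with earlier results of these data known. All members are reported, and relatives, partners and targets are named where past the threshold or set by name. Some genes set by name are not reported here. Replicate numbers follow the order of deposit and pair nothing. The labels do not say whether libraries came from separate animals, litters or days.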

Additional observations from a re-analysis of the deposited data

Results flagged for a closer look

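Among 62 groups of 4 libraries examined (31 factors in KO and Control), 2 held a library far from the other 3, and chance flags about 1 group in 20. Pax2 stood at 23.1 CPM in Control replicate 4, with the other Control libraries between 10.7 and 11.2 CPM. Its log2 fold change was 0.32, and 0.67 without that library. Hoxb7 stood at 59.3 CPM in Control replicate 1, with the other Control libraries between 29.6 and 33.5 CPM. Its log2 fold change was -0.28, and -0.01 without that library.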

How the results depend on the processing

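Of the 31 tested factors, 3 were called higher, and this was 3 under library totals, upper-quartile scaling and no filter, 5 by DESeq2, 4 by limma-voom, 1 with at least 5 CPM in 4 libraries, 0 with the term for how files were named, 0 with the term for the first 3 digits of the ZH number and 2 with the robust estimate of the spread. That last fit was not planned. It was run and seen before the default was chosen, and it puts Mecom at an adjusted p of 0.0522. Without 1 library the count was between 0 and 2. Calls lower numbered 0, except 1 by limma-voom. The count over all genes was 316, and 332 under library totals, 310 under upper-quartile scaling, 749 by DESeq2, 519 by limma-voom, 367 without a filter, 140 with at least 5 CPM in 4 libraries, 199 with the term for file naming, 29 with the term for the ZH number and 292 with the robust estimate. Without 1 library it was between 36 (without KO replicate 2) and 388 (without KO replicate 3), in fits with fewer libraries. Of all calls 60.4% were higher. This share was 72.9% with library totals, 44.3% with at least 5 CPM in 4 libraries, 52.8% with the term for file naming, 17.2% with the term for the ZH number, and between 55.1% (limma-voom) and 61.3% (no filter) in the other fits on 8 libraries. Without 1 library it was between 34% (without Control replicate 4) and 66.2% (without KO replicate 3), and under 50% in 6 of the 8 such fits.

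Some log2 fold changes changed sign, none with a call. They lay near 0, except that of Bcl6 at -0.43, which became 0.21 without Control replicate 2. Emx1 had 0.07 by library totals and by limma-voom and 0.01 with the term for the ZH number. Lhx1 had -0.08 by limma-voom, Elf3 0.13 by library totals and 0.10 by limma-voom, and Pax8 0.03, Hoxd8 0.05 and Hoxd10 0.05 by library totals. Without 1 library, Emx1 lay between -0.31 and 0.12, Lhx1 between -0.05 and 0.15, Six4 between -0.05 and 0.12, Elf3 between -0.13 and 0.07, Bcl6 between -0.78 and 0.21, Hoxd8 between -0.21 and 0.06, and Hoxd10 between -0.21 and 0.01. For the calls that moved, the cause was not tested. Replicate numbers name libraries and pair none. The first 3 digits of the ZH number are shared across groups, except those of Control replicate 4, which no other library carries. The fit with them as a term, given above, is the blocked one, and Control replicate 4 adds nothing to its fold changes. Sall4, Six2, Eya1, Elf5, Klf5 and Osr1 were under the filter on low counts with all 8 libraries. Klf5 passed the filter in 5 of the fits without 1 library, with adjusted p from 0.224 to 0.524.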
